A study of Mus musculus with 6 samples.

Results

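The genes that encode collagen chains were examined in RNA-seq libraries of slow-cycling label-retaining chondrocytes (LRCs) and other growth plate chondrocytes (non-LRCs) of the mouse. They were chosen by symbol alone, as every row of the count table whose symbol is Col, a collagen type number, a and a chain number. This gave 43 of the 23159 genes in the table, and 39 of the 43 passed the filter on low counts, as did 13728 genes in all. By the known structure of the proteins, 11 were assigned to the fibrillar class, 9 to the FACIT class (fibril-associated collagens with interrupted triple helices), 9 to the network class, 6 to the beaded filament class, 4 to the transmembrane class and 2 to the multiplexin class, which left 2 others, *Col7a1* and *Col28a1*.

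The series holds 6 libraries, 1 of LRCs and 1 of non-LRCs from each of 3 experiments. For each experiment the study collected cells from multiple littermates. All mice were 49 days old and homozygous for 4 alleles or transgenes: Col2a1-tTA (a transgene that the labels write with Peli2, and which the study's methods place downstream of that gene), TRE-H2B-GFP at Col1a1, Col2a1-creER, and tdTomato at R26R. All had received doxycycline from day 21 to day 49, which stops new H2B-GFP transcription, and tamoxifen on days 46 and 47. From CD45-negative cells with tdTomato, about 10000 cells with high H2B-GFP were sorted as LRCs and about 50000 with mid to low H2B-GFP as non-LRCs, so the groups differ in the retained label and not in genotype or treatment. Several features limit them as a model. The *Col2a1* promoter drives both tTA and creER, so that cells were labelled by activity of a collagen promoter, and the H2B-GFP cassette used to sort the cells lies at the locus of another collagen gene, *Col1a1*. These are bulk samples, in which more cells of a type and more RNA per cell cannot be told apart.

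Each collagen molecule is a triple helix of 3 chains, made of 1 kind of chain or of several. Cartilage fibrils are built from type II collagen, the product of *Col2a1*, with type XI collagen inside the fibril and type IX collagen, a FACIT, on its surface. Hypertrophic chondrocytes of the growth plate are known for type X collagen, a short-chain network collagen, and the matrix next to chondrocytes for the beaded filaments of type VI. Type I collagen builds the fibrils of bone, tendon and skin, with types III and V in many soft tissues, and type IV forms the network of basement membranes.

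The sequences of 3 members and of the boundary between 2 more are shown first, because 3 of the 4 genes that passed the test below (*Col4a2*, *Col5a3* and *Col8a1*) are among them, with *Col4a1*, the partner of *Col4a2*, and *Col10a1*, the hypertrophic chain. RefSeq promoter entries were matched for 35 of the 43 genes (build GRCm38.p6). The 250 bases before the transcription start are given 5′ to 3′ on the strand of the gene, with matches to 4 short motifs in capitals, and no annotated exon lies in these 3 windows. *Col5a3*, an α3 chain of type V collagen, starts downstream of chr9:20815068-20815317 (minus strand). *Col8a1*, the α1 chain of the short-chain type VIII collagen, starts downstream of chr16:57754738-57754987 (minus strand). *Col10a1*, the only chain of type X collagen, starts downstream of chr10:34389731-34389980 (plus strand).
Col5a3: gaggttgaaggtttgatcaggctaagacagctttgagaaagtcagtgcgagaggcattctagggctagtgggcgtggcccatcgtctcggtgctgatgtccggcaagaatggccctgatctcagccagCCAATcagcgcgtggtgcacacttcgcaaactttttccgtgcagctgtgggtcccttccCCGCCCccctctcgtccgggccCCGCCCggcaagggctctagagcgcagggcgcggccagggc
Col8a1: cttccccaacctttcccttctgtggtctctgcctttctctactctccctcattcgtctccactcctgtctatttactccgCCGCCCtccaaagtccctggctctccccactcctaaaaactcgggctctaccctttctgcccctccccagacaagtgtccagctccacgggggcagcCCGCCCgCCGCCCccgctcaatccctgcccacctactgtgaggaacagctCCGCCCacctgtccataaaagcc
Col10a1: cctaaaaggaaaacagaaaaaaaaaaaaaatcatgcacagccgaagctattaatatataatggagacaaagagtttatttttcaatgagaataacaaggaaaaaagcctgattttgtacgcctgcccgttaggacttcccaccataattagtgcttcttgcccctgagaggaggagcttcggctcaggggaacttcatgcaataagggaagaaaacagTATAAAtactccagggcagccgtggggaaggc

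The motifs searched were the TATA box with the letters TATAAA, a site of the factor NF-Y with the letters CCAAT, the GC box with the letters GGGCGG, and a core bound by SOX proteins with the letters AACAAT, each on both strands, and no match shown overlaps another. The *Col10a1* window held 1 match, TATAAA on the gene's own strand, 32 to 27 bases before the start. The *Col5a3* window held CCAAT 122 to 118 bases before the start and 2 copies of GGGCGG, which read as CCGCCC because they lie on the opposite strand. The *Col8a1* window held 4 copies of GGGCGG on the opposite strand and no match to the other motifs. Over the 38 windows of the 35 genes, 13.2% held TATAAA, 34.2% CCAAT, 57.9% GGGCGG and 2.63% AACAAT, and over all 32851 windows of the table the shares were 12.4%, 33.8%, 32.7% and 9.42%. Such matches are letters in a window and were not tested as sites.

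*Col4a1* and *Col4a2*, the main chains of basement membrane collagen, lie head to head on chromosome 8, *Col4a1* at chr8:11198423-11312826 on the minus strand and *Col4a2* at chr8:11312805-11449287 on the plus strand. In the GENCODE annotation of GRCm38 their first exons overlap by the 22 bases at chr8:11312805-11312826, shown on the plus strand to mark where the 2 transcripts start against each other. They hold 1 match to the GC box, in capitals. Whether the counting used strand is not given in the sources used here, so that reads from these bases cannot be assigned to one of the genes.
Col4a1 and Col4a2 overlap: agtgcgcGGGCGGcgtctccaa

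Levels were compared between genes as counts per 1000000 library counts (CPM, scaled by TMM) per kb of the principal transcript, a measure per length. *Col2a1* stood first, with a mean of 25535 CPM per kb over the 6 libraries. It was followed by the 3 type IX chains, *Col9a3* at 2912, *Col9a1* at 1354 and *Col9a2* at 1166 CPM per kb, and by the type XI chains *Col11a2* at 1078 and *Col11a1* at 839 CPM per kb. By this mean, the 6 chains of the cartilage fibril were the 6 highest members. The type VI chains *Col6a1*, *Col6a2* and *Col6a3* had 732, 394 and 245 CPM per kb, and the type I chain *Col1a2* lay among them at 313 CPM per kb.

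Neighbours in this order were not always separated by more than the spread over libraries. *Col2a1* lay above every other member in each library, its lowest value being 12423 CPM per kb, in the LRCs of experiment 2, and the highest value of *Col9a3* being 4048 CPM per kb, in the non-LRCs of experiment 1. *Col9a1* and *Col9a2* overlapped, at 627 to 1815 and 741 to 2462 CPM per kb, and so did *Col11a2* and *Col11a1*, at 370 to 1956 and 321 to 1153 CPM per kb. In experiment 2 *Col6a1* lay above both type XI chains, at 570 CPM per kb in LRCs and 802 in non-LRCs. There *Col11a2* had 370 and 503 and *Col11a1* 321 and 739 CPM per kb. The order also depends on the length used, which for *Col11a1* is 7667 bases for the principal transcript and 12744 for the union of exons. *Col10a1* ranked only 18th, with a mean of 19.7 CPM per kb, and ranged from 0.0458 in the LRCs of experiment 2 to 84.3 CPM per kb in the non-LRCs of experiment 3.

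**Figure D1:**
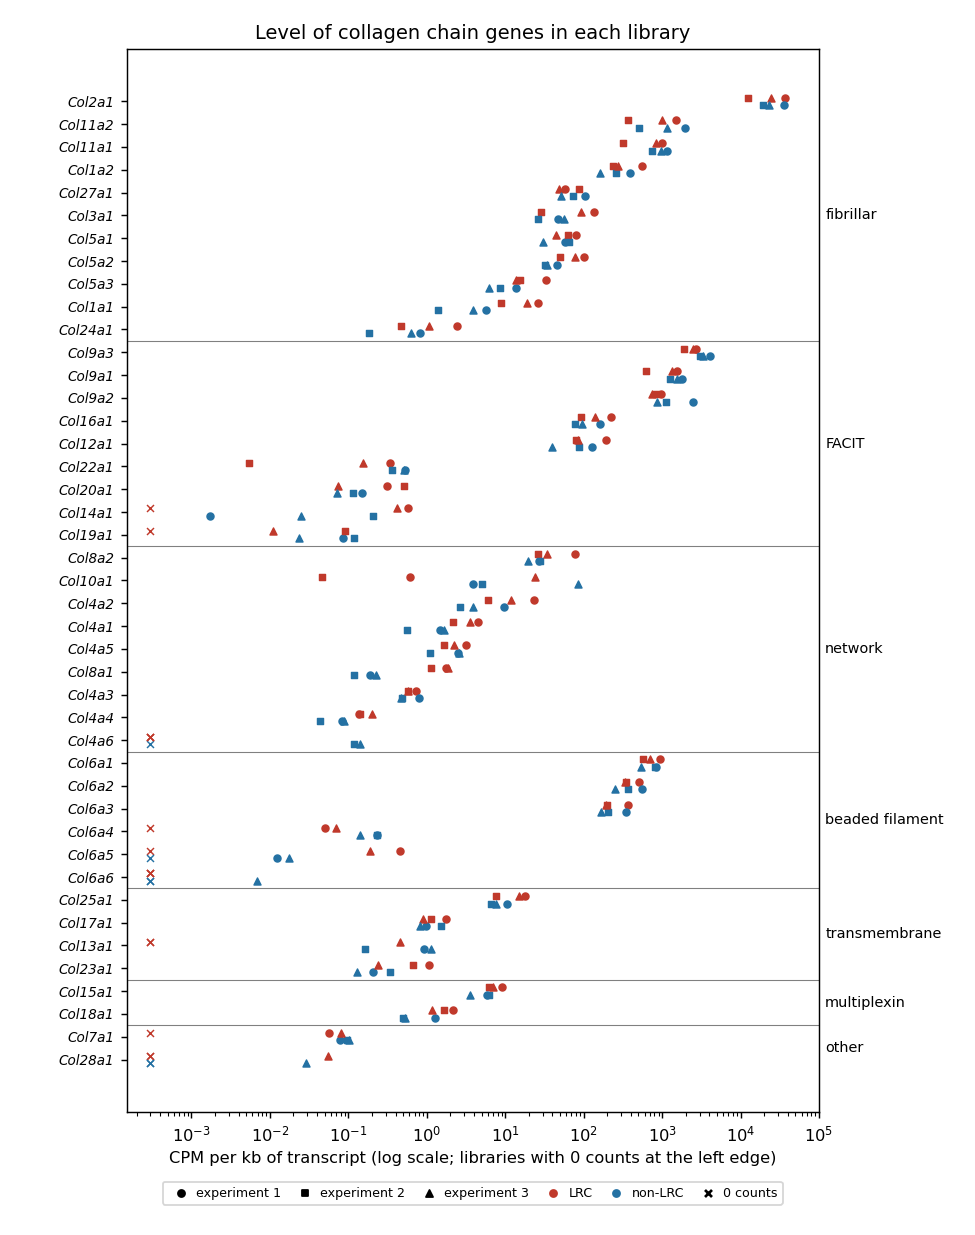
Level of each of the 43 collagen chain genes in each library as CPM per kb of transcript (log scale), by class, with LRCs in red, non-LRCs in blue, a symbol for each experiment and crosses at the left edge for libraries with 0 counts. *Col2a1* stands above every other gene in each library, and *Col1a1* and *Col8a1* show LRC points apart from the non-LRC points.

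At the low end, *Col28a1*, *Col4a6*, *Col6a5* and *Col6a6* did not pass the filter and were not tested in the main edgeR fit. *Col6a6*, a type VI chain, was counted in 1 library only, with 3 counts in the non-LRCs of experiment 3. *Col4a6*, a basement membrane chain, had 0 counts in the 3 LRC libraries and in the non-LRCs of experiment 1, and 0.786 and 0.946 CPM in the other 2 non-LRC libraries. *Col6a5* had 4.27, 0 and 1.75 CPM in the LRCs of experiments 1, 2 and 3, against 0.116, 0 and 0.161 CPM in the non-LRCs. Among the libraries, the LRCs of experiment 2 had the fewest counts, 18943789 against up to 129559872, and the most members at 0, which were 8 of 43, against 0 to 5 in the other 5 libraries. A count of 0 in that library allowed up to 0.143 CPM, the worth of 3 counts, and such limits cover counting error only, since the reads carry no molecular identifiers.

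Collagen genes took between 9.80% and 23.1% of all counts of a library. Their share was 21.8%, 9.80% and 16.4% in the LRCs of experiments 1, 2 and 3, and 23.1%, 13.9% and 16.7% in the non-LRCs. The share was lower in LRCs in each experiment, by little in experiments 1 and 3, and the groups overlapped. This common direction depended on the scale, since with TMM-normalized CPM the log2 ratios of the sums were -0.03, -0.62 and 0.04 in experiments 1, 2 and 3. The means were 15.98% ± 5.99 in LRCs and 17.9% ± 4.70 in non-LRCs (SD, n = 3), with a mean log2 ratio of -0.21 ± 0.26, and without experiment 2 of -0.06. An exact permutation test over the signs of the 3 paired log2 ratios gave p = 0.25 (two-sided), which is the smallest p that 3 pairs allow. Shares of 11 sets were compared, and over them the adjusted p was 0.344.

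*Col2a1* alone gave between 71.4% and 78.5% of the collagen counts of a library. Its share of library counts was 17.1%, 7.0% and 12.6% in LRCs and 17.4%, 10.2% and 12.4% in non-LRCs. The 2 libraries of an experiment were close in experiments 1 and 3, and the LRC library was the lower in experiment 2. The mean log2 ratio was -0.18 ± 0.31 (exact permutation p = 0.50, two-sided, n = 3 pairs, adjusted p = 0.611).

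FACIT genes, led by the type IX chains, took a smaller share of counts in LRCs. They took 1.83%, 1.33% and 1.66% of counts in LRCs and 2.70%, 1.92% and 2.05% in non-LRCs. Every LRC library was below every non-LRC library, with log2 ratios of -0.56, -0.53 and -0.30 in experiments 1, 2 and 3 and a mean of -0.43 without experiment 2. The exact permutation test on the pairs gave its smallest p, 0.25 (two-sided, n = 3 pairs, adjusted p = 0.344), as it did for the type IX and XI chains summed, which took 2.42% ± 0.67 in LRCs and 3.44% ± 0.83 in non-LRCs (SD, n = 3), with a log2 ratio below 0 in each experiment.

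Beaded filament genes took 0.677% ± 0.131 of counts in LRCs and 0.658% ± 0.161 in non-LRCs, with no common direction over the experiments (exact permutation p = 0.75, n = 3 pairs). Network genes took 0.0354% ± 0.0145 and 0.0272% ± 0.0137, again with no common direction (exact permutation p = 0.75, n = 3 pairs). The small transmembrane and multiplexin classes were higher in LRCs in each experiment, at 0.00456% ± 0.00116 against 0.00310% ± 0.000294 and 0.00459% ± 0.000533 against 0.00304% ± 0.000759 (exact permutation p = 0.25 for each, n = 3 pairs), and for the multiplexins the groups did not overlap. The exact binomial 95% interval of a share was at most 0.0134 percentage points to either side, reached by the share of all collagen genes. For that share the SD between libraries was far larger, 5.99 in LRCs and 4.70 in non-LRCs. In a small class the interval weighed more, from 0.00306% to 0.00358% for the transmembrane share in the LRCs of experiment 2. Such intervals cover counting error only.

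**Figure D2:**
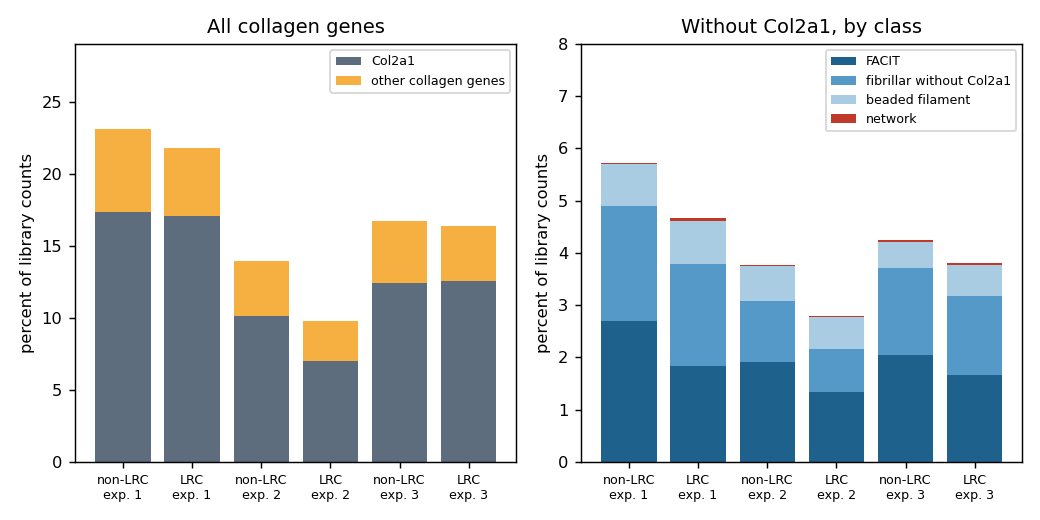
Collagen counts as percent of all counts in each library, in pairs by experiment, for *Col2a1* and the other collagen genes (left) and for the classes without *Col2a1* (right). Bars stand for single libraries, and in the right panel the FACIT bar is shorter for LRCs in each pair, at most 1.83% against at least 1.92%.

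The question of the main comparison was which collagen genes differ between slow-cycling LRCs and non-LRCs. Of the collagen chains, 4 were higher in LRCs and none was lower by edgeR, *Col1a1* of type I collagen, *Col4a2* of type IV, *Col5a3* of type V and *Col8a1* of type VIII. Differentially expressed genes (DEGs) differed by 1 or more on the log2 scale and had an adjusted p below 0.05 (Benjamini-Hochberg over all 13728 genes tested) in edgeR's quasi-likelihood test with a block for the experiment. These were 4 of 39 collagen genes, beside 1.21% of all genes tested, 0.874% higher and 0.335% lower. With no block for the experiment, none of the 39 was a DEG, beside 0.00728% of all genes. The unadjusted p in that fit was below 0.05 for 6 members, all higher, beside 684 genes higher and 605 lower of all 13728. With DESeq2 there were 9 member DEGs, 2 of them lower in LRCs, beside 4.48% of all genes, with limma-voom 7, 1 of them lower, beside 4.52%, after thinning to the smallest library 6 beside 1.95%, with at least 10 counts in every library 5 beside 3.9%, and with DESeq2's size factors or no filter 4 beside 1.3% or 1.24%. Leaving out experiment 1, 2 or 3 gave 1, 11 or 2 beside 0.254%, 3.81% or 1.59% of all genes. The unadjusted p was below 0.05 for 12 members higher and 3 lower in LRCs, beside 8.89% and 9.53% of all genes.

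The classes differed in the middle of their fold changes, given here as a description. The median log2 fold change was 0.39 for fibrillar, -0.47 for FACIT, 0.97 for network, 0.05 for beaded filament and 0.43 for transmembrane members tested, beside -0.10 over all genes. Of the 39, 14 were higher in LRCs in all 3 experiments and 11 were lower in all 3, beside 20.4% and 26.1% of all genes. The libraries of the groups did not overlap for 5 members higher in LRCs (*Col1a1*, *Col4a1*, *Col4a4*, *Col5a2* and *Col8a1*) and 3 lower (*Col9a3*, *Col22a1* and *Col6a4*), beside 8.41% and 10.3% of all genes.

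**Figure D3:**
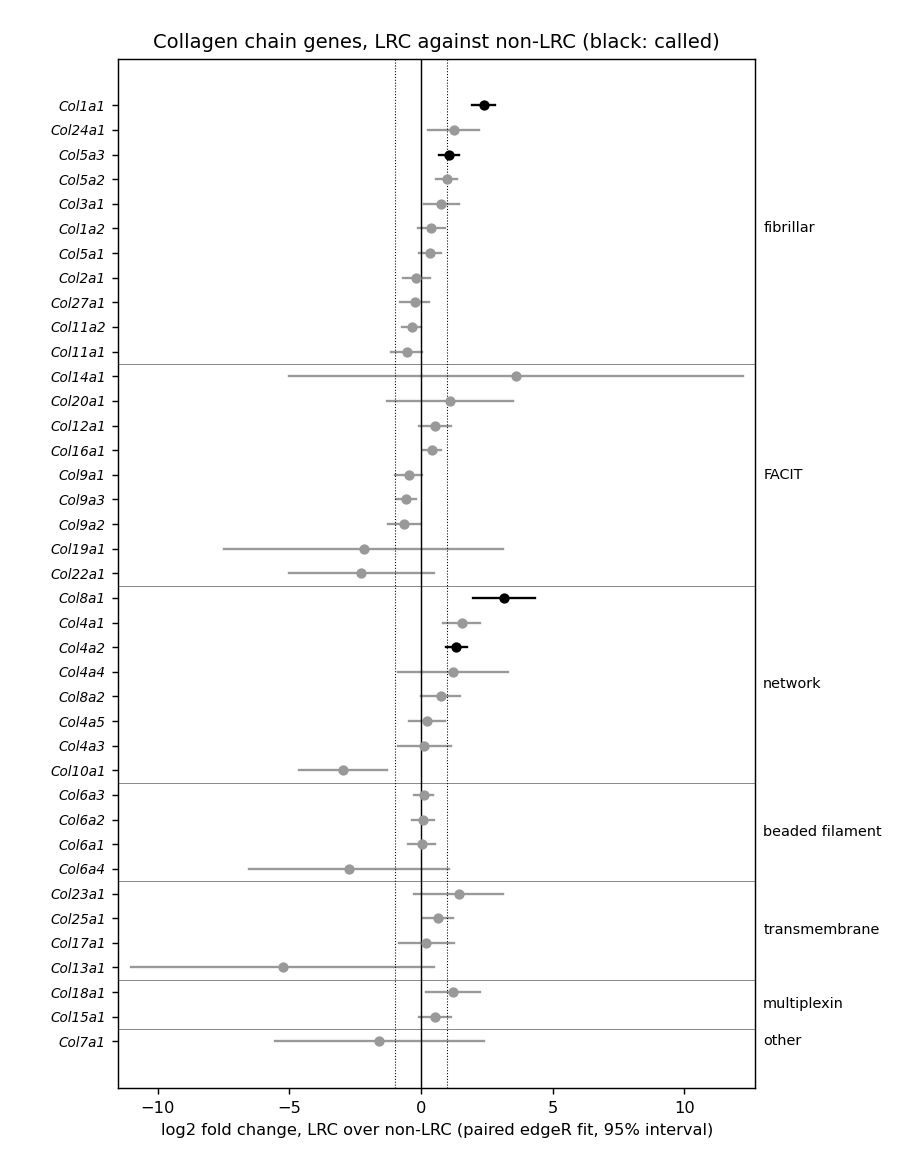
Fitted log2 fold change, LRC over non-LRC, of the 39 collagen genes tested, by class, with 95% intervals from the paired edgeR fit and dotted lines at -1 and 1. The 4 DEGs, in black, all lie above 1, and the widest intervals belong to genes of few counts such as *Col14a1* and *Col13a1*.

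Among the chains of the cartilage fibril, *Col2a1*, the chain of type II collagen, had 189528, 63409 and 125743 CPM in the LRCs of experiments 1, 2 and 3 and 185274, 99319 and 118719 CPM in the non-LRCs. The groups overlapped and the direction was mixed. The fitted log2 fold change was -0.18 with a 95% interval of -0.69 to 0.34 (edgeR adjusted p = 0.709), so that a change of 2-fold in either direction lay outside the interval. Without experiment 2 the value was 0.06, of opposite sign and close to 0.

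All 5 partner chains of types IX and XI were lower in LRCs in each experiment, and none was a DEG. *Col9a3*, the α3 chain of type IX, had 8160, 5743 and 7527 CPM in LRCs and 12329, 9272 and 10196 CPM in non-LRCs. The groups did not overlap, and its log2 fold change was -0.57 (SE 0.15, edgeR adjusted p = 0.127). *Col9a2*, with a log2 fold change of -0.65 (95% interval -1.26 to -0.04), had 2830, 2472 and 2165 CPM in LRCs and 7199, 3276 and 2506 CPM in non-LRCs, so that the difference was widest in experiment 1. For *Col9a1*, *Col11a1* and *Col11a2* the log2 fold changes were -0.47, -0.54 and -0.35, and the groups overlapped for each. *Col27a1*, a fibrillar chain made in cartilage, had 439, 660 and 364 CPM in LRCs and 789, 556 and 396 CPM in non-LRCs, with no common direction (log2 fold change -0.24, 95% interval -0.80 to 0.32).

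*Col10a1*, the marker chain of hypertrophic chondrocytes, was unequal between experiments. It had 1.93, 0.143 and 76.0 CPM in LRCs and 12.2, 15.7 and 264 CPM in non-LRCs. The LRC library was the lower one in each experiment, yet the LRCs of experiment 3 lay above the non-LRCs of experiments 1 and 2. The log2 fold change was -2.95 (SE 0.69), and the edgeR adjusted p of 0.101 missed the threshold. The value in the LRCs of experiment 2 rested on 3 counts. Without that experiment the log2 fold change was -2.20 and the adjusted p 0.00853, and DESeq2 and limma-voom with the block also made it a DEG, with adjusted p of 0.0308 and 0.00293. Of 11 other markers of hypertrophic chondrocytes, 3 were DEGs lower in LRCs (*Panx3*, *Mef2c* and *Pth1r*) and none was higher by edgeR or DESeq2, with 5 lower by DESeq2. By edgeR, 2 were higher and 6 lower at an unadjusted p below 0.05, beside 8.89% and 9.53% of all genes. DEGs lower in LRCs were 0.335% of all genes by edgeR. Their summed level was 1283 to 2371 CPM in LRCs and 1696 to 3692 CPM in non-LRCs, and their part in the *Col10a1* difference was not tested.

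Among the fibrillar chains of bone and soft tissue, *Col1a1*, the α1 chain of type I collagen (chr11:94936224-94953042, plus strand, GRCm38), had the smallest adjusted p of all members. It had 154, 53.0 and 113 CPM in the LRCs of experiments 1, 2 and 3 and 33.7, 8.20 and 23.3 CPM in the non-LRCs. Every LRC library was above every non-LRC library, although experiment 2 was the lowest in both groups. The log2 fold change was 2.38 (SE 0.18, edgeR adjusted p = 0.0151), a 5.22-fold higher level in LRCs. It was the one member that was still a DEG with any of the 3 experiments left out.

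The other chain of type I collagen did not follow. *Col1a2*, the α2 chain, had 2950, 1273 and 1487 CPM in LRCs and 2055, 1398 and 868 CPM in non-LRCs. The groups overlapped, with a log2 fold change of 0.39 (95% interval -0.12 to 0.90, edgeR adjusted p = 0.386). The interval of *Col1a1*, 1.94 to 2.82, lay wholly above it. *Col3a1*, the chain of type III collagen, was higher in LRCs in each experiment, least in experiment 2, with 753, 157 and 516 against 261, 147 and 315 CPM and a log2 fold change of 0.78 (edgeR adjusted p = 0.220).

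The 3 chains of type V collagen, which takes part in the fibrils of type I, were not alike. *Col5a3* had 203, 93.4 and 84.2 CPM in LRCs and 84.4, 52.4 and 38.5 CPM in non-LRCs. The LRC library was higher within each experiment while the groups overlapped narrowly, and the log2 fold change was 1.08 (SE 0.16, edgeR adjusted p = 0.0454). *Col5a2* had 662, 332 and 508 CPM in LRCs and 301, 211 and 229 CPM in non-LRCs, with no overlap. Its log2 fold change of 0.98 (SE 0.16, edgeR adjusted p = 0.0570) missed both limits for a DEG by little. *Col5a1*, the α1 chain, had a log2 fold change of 0.34 (95% interval -0.07 to 0.75) and overlapping groups. *Col24a1*, a minor fibrillar chain, had 17.3, 3.35 and 7.59 CPM in LRCs and 5.79, 1.31 and 4.45 CPM in non-LRCs, with a log2 fold change of 1.23 (edgeR adjusted p = 0.179). It was a DEG with DESeq2 and limma-voom, with adjusted p of 0.0357 and 0.0284.

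**Figure D4:**
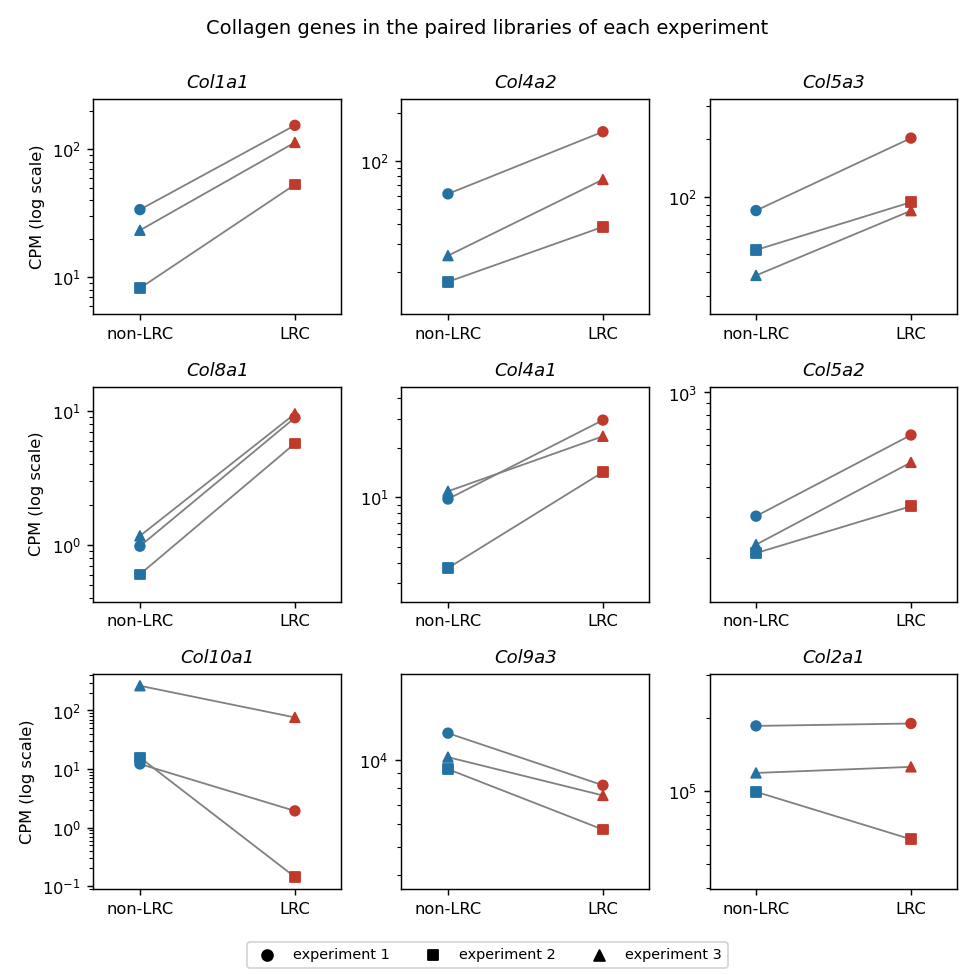
CPM (log scale) of 9 collagen genes in the non-LRC and LRC libraries of each experiment, joined by a line within an experiment. Lines of the 4 DEGs (*Col1a1*, *Col4a2*, *Col5a3* and *Col8a1*), *Col4a1* and *Col5a2* all go up, those of *Col10a1* and *Col9a3* all go down, and those of *Col2a1* are mixed, with 63409 against 99319 CPM in experiment 2.

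Among the network collagens, *Col8a1* had the largest log2 fold change of the 4 DEGs, at a low level. It had 8.94, 5.74 and 9.56 CPM in LRCs and 0.978, 0.602 and 1.17 CPM in non-LRCs, from 23 to 101 counts in the non-LRC libraries. The groups were far apart, and the change was close to equal in the experiments, with log2 differences of 3.15, 3.18 and 3.00. The log2 fold change was 3.16 (SE 0.48, edgeR adjusted p = 0.0489), or 8.91-fold. Its partner *Col8a2*, which was more abundant, had 333, 114 and 146 CPM in LRCs and 118, 121 and 84.5 CPM in non-LRCs, with a log2 fold change of 0.74 (edgeR adjusted p = 0.268) and no difference of that direction in experiment 2.

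The head-to-head pair of type IV collagen was higher in LRCs in each experiment. *Col4a2* had 152, 38.4 and 76.2 CPM in LRCs and 61.9, 17.4 and 25.3 CPM in non-LRCs, and *Col4a1* had 29.5, 14.2 and 23.5 CPM against 9.77, 3.72 and 10.9 CPM. For *Col4a1* the groups did not overlap, and for *Col4a2* they did, since the LRCs of experiment 2 lay below the non-LRCs of experiment 1. The log2 fold changes were 1.34 (SE 0.17, edgeR adjusted p = 0.0354) for *Col4a2*, a DEG, and 1.54 (SE 0.28, edgeR adjusted p = 0.0664) for *Col4a1*, which was not, so that the chain with the smaller change passed. *Col4a1* was a DEG with at least 10 counts required in every library, after thinning, with DESeq2, with limma-voom and without experiment 2. The other type IV chains tested had lower mean levels per kb, and their log2 fold changes were 0.12 for *Col4a3*, 1.20 for *Col4a4* and 0.22 for *Col4a5*. Of the defining genes of endothelial cells, which rest on a basement membrane, *Cdh5*, *Kdr* and *Emcn* had 0 counts in all 6 libraries. The 10 endothelial genes summed to 3.35 to 17.6 CPM in LRCs and 2.63 to 3.33 CPM in non-LRCs, a difference of the same direction whose part in the type IV values was not tested. It rested on *Ramp2*, which had 2.62, 13.96 and 2.54 CPM in LRCs and 1.40, 1.68 and 0.865 CPM in non-LRCs. Without *Ramp2* the sums were 1.47, 3.63 and 0.815 CPM in LRCs and 1.23, 1.65 and 1.99 CPM in non-LRCs, with overlap, and the other 2 endothelial genes tested, *Pecam1* and *Vwf*, had log2 fold changes of -0.47 and -1.82.

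The beaded filament chains *Col6a1*, *Col6a2* and *Col6a3*, which together form type VI collagen, were the members with the smallest differences. *Col6a1* had 3894, 2335 and 2887 CPM in LRCs and 3387, 3288 and 2204 CPM in non-LRCs. The log2 fold changes were 0.03 (95% interval -0.48 to 0.55), 0.07 (-0.36 to 0.49) and 0.10 (-0.25 to 0.45). Changes of 2-fold lay outside all 3 intervals, with edgeR adjusted p of 0.948, 0.872 and 0.760. *Col6a4* was rare, at 0.377, 0 and 0.512 CPM in LRCs and 1.69, 1.73 and 1.03 CPM in non-LRCs, with no overlap and a log2 fold change of -2.74 (edgeR adjusted p = 0.409).

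The FACIT class held genes on both sides. Apart from type IX, *Col16a1* was higher in LRCs in each experiment, at 1177, 475 and 716 against 832, 400 and 493 CPM (log2 fold change 0.43, edgeR adjusted p = 0.196). *Col12a1*, known from dense connective tissue, had 2237, 933 and 987 CPM in LRCs and 1485, 1006 and 461 CPM in non-LRCs, so the direction turned in experiment 2. *Col22a1*, known from tissue junctions, was rare and lower in LRCs without overlap, at 3.03, 0.0478 and 1.37 CPM against 4.65, 3.22 and 4.49 CPM (log2 fold change -2.26, edgeR adjusted p = 0.353). The remaining members, *Col14a1*, *Col19a1* and *Col20a1*, were below 4 CPM in every library, and none was a DEG in the main fit. *Col14a1* was a DEG higher in LRCs without experiment 2. It had 3.30, 0 and 2.40 CPM in LRCs and 0.00968, 1.18 and 0.141 CPM in non-LRCs, so its direction turned in experiment 2.

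Of the transmembrane collagens, *Col25a1* was the most abundant, with 46.6, 19.9 and 39.7 CPM in LRCs and 27.3, 17.4 and 19.8 CPM in non-LRCs (a log2 fold change of 0.66, edgeR adjusted p = 0.215). *Col23a1* and *Col17a1* had log2 fold changes of 1.43 and 0.20, with intervals that included 0. *Col13a1* had 0 counts in the LRCs of experiments 1 and 2 and 1.44 CPM in experiment 3, against 2.88, 0.524 and 3.54 CPM in non-LRCs, and it was not a DEG (edgeR adjusted p = 0.308), nor was it with limma-voom (adjusted p = 0.177), while with DESeq2 it was (adjusted p = 0.00991). The multiplexins, basement membrane proteoglycans whose ends are the sources of endostatin-like fragments, were *Col18a1*, with a log2 fold change of 1.21 (95% interval 0.17 to 2.26, edgeR adjusted p = 0.214), and *Col15a1*, with 0.54 (95% interval -0.07 to 1.15). *Col18a1* had 10.3, 7.84 and 5.63 CPM in LRCs and 6.03, 2.36 and 2.54 CPM in non-LRCs. *Col7a1*, the anchoring fibril chain, was under 1 CPM in every library.

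Because collagen molecules need their chains in set proportions, 12 ratios of chains were compared per length. In type I collagen, which needs 2 α1 chains for each α2 chain, counts per kb of *Col1a2* exceeded those of *Col1a1* in every library. The ratio of *Col1a2* to *Col1a1* was 21.2, 26.6 and 14.6 in LRCs and 67.5, 189 and 41.4 in non-LRCs. The groups did not overlap, with a mean log2 difference of -2.0 ± 0.72 (SD, n = 3 pairs). The ratio of *Col8a2* to *Col8a1* was 43.9, 23.5 and 18.1 in LRCs and 142, 236 and 85.4 in non-LRCs, also with no overlap and with a mean log2 difference of -2.42 ± 0.83. For both ratios an exact permutation test over pairs gave p = 0.25, the smallest that 3 pairs allow (adjusted p = 0.600 over the 12 ratios).

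The ratio of *Col5a1* to *Col5a2* moved by nearly the same amount in each experiment, with a mean log2 difference of -0.64 ± 0.04 (SD), from 1.26, 2.04 and 0.885 in non-LRCs to 0.802, 1.28 and 0.583 in LRCs. The ratio of *Col2a1* to *Col11a1* was higher in LRCs in each experiment, at 36.8, 38.7 and 29.5 against 31.5, 26.3 and 23.7, and the groups overlapped (mean log2 difference 0.37 ± 0.17). That of *Col2a1* to *Col10a1*, genes of different zones of the growth plate, was higher in LRCs in each experiment as well. For each of these 3 ratios the exact permutation p was again 0.25 (adjusted p = 0.600, n = 3 pairs). The other 7 ratios, within types IV, VI, IX and XI, had differences of both signs over the experiments, with mean log2 differences from -0.20 to 0.19.

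**Figure D5:**
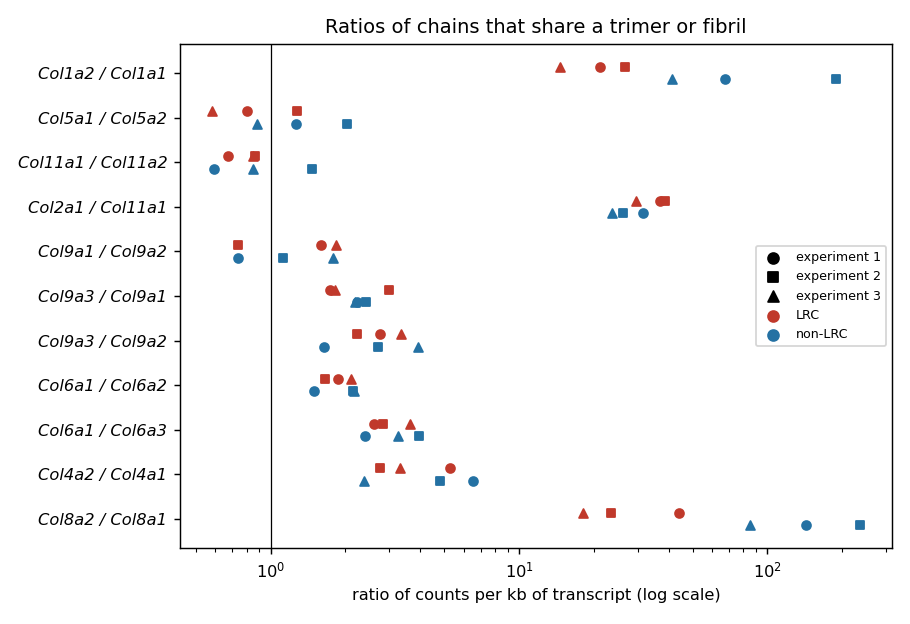
Ratio of counts per kb between 2 chains (log scale) for 11 pairs in each library, LRCs in red and non-LRCs in blue, with a symbol for each experiment. The *Col1a2* to *Col1a1* and *Col8a2* to *Col8a1* ratios of LRCs, up to 26.6 and 43.9, lie below all those of non-LRCs, and the ratios within types VI and IX overlap.

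Collagen chains are hydroxylated, folded, trimmed and cross-linked by other proteins, and 31 of 34 such genes listed were tested. One was a DEG by edgeR, *Adamts2*, which cuts the N-propeptide from fibrillar procollagens. It had 96.1, 38.2 and 42.9 CPM in LRCs and 12.8, 6.31 and 7.95 CPM in non-LRCs. The groups did not overlap, and the log2 fold change was 2.65 (SE 0.21, edgeR adjusted p = 0.0151). Of the 31, 9 had a positive and 22 a negative log2 fold change, with a median of -0.16 beside -0.10 over all genes. Over all 13728 genes tested, 6038 had a positive log2 fold change and 1.21% were DEGs. By DESeq2 and by limma-voom, 3 genes of the list were DEGs, all higher in LRCs, beside 4.48% and 4.52% of all genes. The summed level of the list was lower in every LRC library, at 11032 to 13839 CPM against 15273 to 17833 CPM in non-LRCs.

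Of 12 collagen receptors, 9 were tested, and 1 was a DEG, beside 1.21% of all genes. *Antxr2*, a receptor that binds type VI and type IV collagen, had 163, 102 and 116 CPM in LRCs and 53.2, 31.9 and 51.9 CPM in non-LRCs. The groups did not overlap, with a log2 fold change of 1.48 (SE 0.17, edgeR adjusted p = 0.0295). The collagen-activated kinase *Ddr2* had a log2 fold change of 0.30 and *Ddr1* of 0.10, and *Itga10*, the integrin chain of chondrocytes, had -0.45, none of them a DEG. The median of the 9 was 0.12. The platelet receptor *Gp6* had 0 counts in every library.

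Markers of cell types were read beside these results. Over all 13728 genes tested by edgeR, 6038 had a positive log2 fold change. By edgeR, 0.874% of all genes were DEGs higher and 0.335% lower in LRCs, and by DESeq2 4.48% were DEGs. An unadjusted p below 0.05 was found by edgeR for 8.89% of genes higher and 9.53% lower. The chondrocyte genes were present in all libraries, with a summed level of 17470 to 26202 CPM in LRCs and 31493 to 35534 CPM in non-LRCs. None of 9 tested was a DEG by edgeR, DESeq2 or limma-voom, with 5 lower at an unadjusted p below 0.05 by edgeR. Of the 9, 6 had a negative log2 fold change and 3 a positive one, *Sox9* at 0.46, *Sox5* at 0.07 and *Sox6* at 0.22. Of 11 tested genes known from superficial articular cartilage and synovium, 6 were DEGs higher in LRCs (*Prg4*, *Cilp*, *Cilp2*, *Clu*, *Thbs4* and *Abi3bp*). Of the 11, 9 had a positive log2 fold change and 2 a negative one, *Cd55* at -0.15 and *Creb5* at -0.04. The summed level of this list was 1783 to 4017 CPM in LRCs against 304 to 447 CPM in non-LRCs. Tendon and fibroblast genes summed to 207 to 234 CPM in LRCs against 128 to 177 CPM in non-LRCs, with 0 of 8 DEGs by edgeR, 2 by DESeq2, and 2 higher at an unadjusted p below 0.05 by edgeR. Of the 8, 7 had a positive log2 fold change and 1, *Scx*, a negative one, at -0.22. *Fap*, the most abundant of this list in each library, had 153, 102 and 165 CPM in LRCs and 96.2, 128 and 149 CPM in non-LRCs, so its direction turned in experiment 2. The sums of both the superficial list and the tendon and fibroblast list were higher in every LRC library, as *Col1a1* and *Col8a1* were. The part of these lists in the collagen differences was not tested. By in situ hybridization, the paper found *Prg4* mRNA in resting chondrocytes too, much fainter than at the articular surface. It also counted labelled cells before and after digestion, and reported that tdTomato-positive cells so released were almost all growth plate chondrocytes. For the other genes of these lists it shows no such staining. Osteoblast genes summed to 197 to 438 CPM in LRCs against 413 to 921 CPM in non-LRCs, with *Sost* at 0 counts in every library. They had 0 DEGs by edgeR, 3 lower by DESeq2, and 4 lower at an unadjusted p below 0.05 by edgeR. *Alpl*, *Ibsp* and *Sp7*, which are also on the hypertrophic list, gave most of this sum in each library. The osteoblast sum is therefore not independent of the hypertrophic one. Of 7 osteoblast genes tested, 6 had a negative log2 fold change. The exception was *Dmp1* (2.94, edgeR adjusted p = 0.440), with LRC values of 3.80, 3.15 and 6.31 CPM against 0, 1.83 and 1.55 CPM. Skeletal muscle genes summed to at most 17.0 CPM and leukocyte and erythroid genes to at most 26.0 CPM in a library, with 0 DEGs by edgeR or DESeq2 among 6 and 4 tested and 0 at an unadjusted p below 0.05 by edgeR. Of 3 endothelial genes tested, 0 were DEGs by edgeR, 1 was by DESeq2 and 1 had an unadjusted p below 0.05 by edgeR.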

How the data were processed

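RNA was measured in 6 libraries, grouped by the sample labels and paired by their experiment number. The authors aligned single-end reads to mm10 (GRCm38) with TopHat 2.0.13 and Bowtie2 2.2.1 and counted unambiguous reads per gene with HTSeq. They deposited raw counts, the input of everything here, of 18943789 to 129559872 per library. Annotation and strand setting are not given in the sources used here. Deposited normalized and rlog tables were not used. Collagen members, classes, marker lists and tests were chosen with earlier results of these data known.

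In R 4.3.3, edgeR 4.0.16 fitted all genes kept by filterByExpr (minimum count 10, minimum total 15) with TMM and a block for the experiment, as the study's methods pair by mouse of origin. Deviations from group means correlated within experiments 1, 2 and 3 (r = 0.197, 0.288 and 0.336 across genes), and the number was used as a pair. CPM is TMM-scaled. Lengths are those of the APPRIS principal transcript in GENCODE for GRCm38, and all 43 symbols matched. The fit was tested on simulated data. The study collected the cells of each experiment from multiple littermates, although its methods name the mouse of origin as the pairing. Where separate animals are not recorded, p-values cover the spread between these libraries. Named genes were all collagen DEGs, the cartilage chains, the chains of types I, III, V and VI, the 3 most abundant of each class, members with an unadjusted p below 0.05, and DEGs among biosynthesis and receptor genes. Other named members were chosen after their values were seen.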

Additional observations from a re-analysis of the deposited data

How the results depend on the processing

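Of 39 collagen genes, 4 were DEGs in the main edgeR fit. The count was 4 with DESeq2's size factors, with a scale that left out collagen counts, with no filter and with a prior count of 2, 5 with at least 10 counts in every library, 6 after thinning to the smallest library, 7 with limma-voom, 9 with DESeq2 and 0 with no replicate block. It was 1 to 11 when 1 experiment was left out, 1 (*Col1a1*) without experiment 1, 11 without experiment 2, which holds the smallest library, and 2 (*Col1a1* and *Col4a2*) without experiment 3. *Col8a1* and *Col5a3* were not DEGs without experiment 1 or without experiment 3, with fold changes of the same direction. *Col6a5*, which the main fit did not test, was a DEG higher in LRCs with DESeq2 and without experiment 2. The members fitted were 43 with DESeq2 or no filter and 40 without experiment 1. They were 38 after thinning, 32 with at least 10 counts in every library, and 39 otherwise. Background shares moved too, from 0.00728% of genes with no block to 4.52% with limma-voom. The blocked fit is the one reported, and without the pairing no collagen gene was a DEG.

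Signs turned in members and ratios close to 0. Over the experiments left out, log2 fold changes ranged from -0.14 to 0.52 for *Col17a1*, -0.48 to 0.059 for *Col27a1*, -0.29 to 0.058 for *Col2a1*, -0.13 to 0.30 for *Col6a1* and -0.10 to 0.16 for *Col6a2*. Leaving out 1 experiment gave log2 ratios of -0.0064 to 0.75 for the network sum and -0.060 to 0.15 for the beaded filament sum. For chain ratios the ranges of the log2 difference that crossed 0 were -0.38 to 0.10 for *Col11a1* over *Col11a2*, -0.28 to 0.58 for *Col9a1* over *Col9a2*, -0.31 to 0.021 for *Col9a3* over *Col9a1*, -0.26 to 0.26 for *Col9a3* over *Col9a2*, -0.21 to 0.14 for *Col6a1* over *Col6a2*, -0.18 to 0.14 for *Col6a1* over *Col6a3* and -0.54 to 0.090 for *Col4a2* over *Col4a1*. Median log2 fold changes of short marker lists moved as well. They were for osteoblast -1.12 after thinning and -1.14 to -0.78 over left-out experiments, for endothelial 1.82 with at least 10 counts, 3.39 after thinning and -2.25 to 1.01, and for leukocyte and erythroid -0.018 with no block, 0.48 with at least 10 counts, -0.0087 after thinning and -0.83 to 0.0024. The causes were not tested. Class sums and shares divided by the union of exons, an alternative chosen after seeing the data, kept the direction of every set. Depth limits the rarest chains: in the LRCs of experiment 2, 1 count is worth 0.0478 CPM, and *Col10a1* rests there on 3 counts.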

Other observations

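Beyond the DEGs of the main edgeR fit, genes that process collagen chains were unequal in direction, and those named here were chosen after their values were seen. *Serpinh1*, the collagen chaperone HSP47, had 1676, 889 and 1639 CPM in LRCs and 3633, 1292 and 3660 CPM in non-LRCs, lower in LRCs in each experiment with overlapping groups (log2 fold change -0.94, SE 0.18, edgeR adjusted p = 0.0735). *Ppib*, a prolyl isomerase of the endoplasmic reticulum, was also lower in each experiment, with a log2 fold change of -0.91 (edgeR adjusted p = 0.0540). In the other direction, *Loxl1*, a cross-linking oxidase, had 14.5, 26.3 and 8.80 CPM in LRCs and 5.90, 4.56 and 2.80 CPM in non-LRCs, with no overlap (log2 fold change 1.82, edgeR adjusted p = 0.0808). *Tll1*, a relative of the C-propeptidase *Bmp1*, had 12.1, 2.20 and 13.2 CPM in LRCs and 0.445, 0 and 0.724 CPM in non-LRCs (edgeR adjusted p = 0.0588), while *Bmp1* itself had a log2 fold change of -0.51 (edgeR adjusted p = 0.176). None of these 5 was a DEG by edgeR, while DESeq2 and limma-voom each gave 3 DEGs in the whole biosynthesis list, all higher in LRCs.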
